A study of Mus musculus with 13 samples.

Results

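The SPARC, SMOC and testican genes encode secreted calcium-binding glycoproteins of the extracellular matrix. They were found in the RNA-seq count table by matching its gene IDs to the mouse symbols Smoc1, Smoc2, Sparc, Sparcl1, Spock1, Spock2, Spock3 and Fstl1. All 8 symbols matched 1 gene ID each, of 55487 gene IDs in the table. The rule for members is the list of symbols alone, with no threshold on a measured value. A filter on low counts kept 7 of the 8 for testing and dropped Spock3.

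The study compared pacemaker cells (PC) of the sinoatrial node, the heart's natural pacemaker, with right atrial cardiomyocytes (RACM), the working muscle next to it. Each cell type had 3 RNA-seq libraries, named p0, p2 and p4, all of the Hcn4-GFP/Myh6-mCherry genotype and the neonatal stage. Cells were flow sorted from nodal and right atrial tissue that was pooled from 8 to 10 hearts for each replicate. What the p number stands for is not given in the labels, nor is whether PC and RACM libraries of one number came from one pool.

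Values below are in the order p0, p2, p4 within each cell type unless a library is named. Library totals ranged from 14141151 to 22290996 counts. The defining markers fitted the labels: all 8 pacemaker cell markers were higher in PC and 5 of 6 working atrial markers were lower. No cardiomyocyte marker was at 0 in any library. Hcn4 and Myh6, in the pacemaker cell and cardiomyocyte lists, name the reporters of the sorted cells, so their values may depend on the sort. RNA of other heart cells was also present, and which cell type held more depended on the markers. Summed fibroblast markers were 659, 818 and 1771 CPM (counts after each library is scaled to the same total) in the PC libraries and 1089, 2539 and 7186 CPM in the RACM libraries, and none of the 9 was at 0 in any library. Summed macrophage markers were 10.6 to 41.4 CPM in PC and 148 to 702 CPM in RACM. C1qa and Fcgr1 were the 2 of 9 at 0 in a library. Smooth muscle and pericyte sums went the other way, at 669, 430 and 707 CPM in PC and 211, 300 and 675 CPM in RACM. The markers themselves split, with 3 called higher and 2 lower in PC. Acta2 was the largest part, at 482, 302 and 534 CPM in PC and 82.3, 99.4 and 291 CPM in RACM. Pdgfrb and Notch3 were the 2 lower, with means of 5.36 and 5.70 CPM in PC against 47.4 and 38.1 in RACM. Summed neuron markers were 34.8 to 54.1 CPM in PC and at most 23.2 CPM in RACM. Dbh, the 1 called, made up most of the PC sum, at 28.9, 50.5 and 47.8 CPM. Of the 7 neuron markers, 5 were at 0 in a library. These values bear on several genes below, where they are named again. In sorted bulk samples, fewer cells of a type and less RNA per cell cannot be told apart.

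The proteins of the family share a follistatin-like domain and an extracellular calcium-binding domain. SPARC binds collagen and is a classic matricellular protein, that is, a matrix protein that tunes how cells meet the matrix rather than building it. SPARC-like 1, also called hevin, is its closest relative. SMOC proteins modulate bone morphogenetic protein (BMP) signalling, the testicans (Spock genes) are proteoglycans that carry glycosaminoglycan chains, and FSTL1 is a BMP-binding glycoprotein made mostly by mesenchymal cells.

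In the mm10 build, per the file headers, Smoc1 (ENSMUSG00000021136) lies on chromosome 12 from 81026808 to 81186414 on the plus strand, and Smoc2 (ENSMUSG00000023886) on chromosome 17 from 14279506 to 14404790, plus strand. Sparc (ENSMUSG00000018593) spans 55394500 to 55423183 of chromosome 11 on the minus strand. Sparcl1 (ENSMUSG00000029309) spans 104079111 to 104113733 of chromosome 5, minus strand. Spock1 (ENSMUSG00000056222) spans 57421195 to 57908332 of chromosome 13 on the minus strand, and Spock2 (ENSMUSG00000058297) spans 60106219 to 60135198 of chromosome 10 on the plus strand. Spock3 (ENSMUSG00000054162) is on chromosome 8 from 62951009 to 63357103, plus strand, and Fstl1 (ENSMUSG00000022816) on chromosome 16 from 37776873 to 37836514, plus strand. Counts were taken over exons, and no member shared an exonic base with another annotated gene.

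Smoc2 was the member that separated the cell types most. Its CPM was 455, 328 and 357 in the PC libraries and 2.90, 6.94 and 11.2 in the RACM libraries. Every PC library was far above every RACM library. The log2 fold change of PC over RACM was 5.74 ± 0.45 (standard error, SE), a 53.6-fold difference, with an adjusted p of 1.94e-04 by edgeR's quasi-likelihood test with Benjamini-Hochberg adjustment. It passed under all 15 alternative settings, with log2 fold changes of 5.39 to 6.27 and adjusted p from 1.85e-52 to 0.00220. The raw counts behind these levels were 5798 to 8168 in PC and 42 to 232 in RACM.

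Its paralog Smoc1, also a secreted BMP modulator, was near the detection limit and did not share this pattern. Smoc1 was at 2.17, 0.170 and 1.89 CPM in PC, and at 3.18, 3.65 and 2.65 CPM in RACM. The 3 PC libraries lay below the 3 RACM libraries, with PC p2, at 3 counts, far below the rest. The log2 fold change of -1.15 ± 0.78 did not pass the test (adjusted p = 0.464, edgeR quasi-likelihood). Per kilobase (kb) of exon, the scale on which levels of different genes can be set side by side, Smoc2 made up 99.1%, 99.9% and 99.0% of the summed SMOC level in the PC libraries. In the RACM libraries it made up 31.5%, 48.9% and 68.0%.

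Of the testicans, Spock1 was the other member called higher in PC. It was at 16.6, 25.8 and 6.71 CPM in PC, against 1.86, 3.89 and 0.385 CPM in RACM. The groups did not overlap, although PC p4 and RACM p4 were each the lowest of their cell type. Its log2 fold change was 3.01 ± 0.76, an 8.04-fold difference, with an adjusted p of 0.0466 (edgeR quasi-likelihood), just inside the threshold of 0.05. Leaving out PC p0 gave an adjusted p of 0.117, PC p2 0.122, RACM p0 0.106, RACM p2 0.0519 and RACM p4 0.0576, each of which ended the call. It was also lost with upper-quartile scaling (0.0550) and limma-voom (0.0718), and was kept with the p number as a block (0.00170). Over all alternatives the log2 fold change ran from 2.50 to 3.90 and the adjusted p from 2.99e-05 to 0.122.

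Spock2 was the abundant testican in both cell types. Its CPM was 458, 372 and 217 in PC, and 267, 203 and 82.6 in RACM. PC was the higher library at each number, but the groups overlapped, since PC p4 lay below RACM p0. A log2 fold change of 0.92 ± 0.41 did not pass (adjusted p = 0.235). With the p number as a block it was 1.01 and passed (adjusted p = 0.00603), as it did with no filter (0.0148). Over all alternatives adjusted p ran from 0.00603 to 0.480. Without RACM p4 the log2 fold change was 0.57. Spock3, the third testican, had 18 counts in all PC libraries and 9 in all RACM libraries. Its CPM was 0.390, 0.226 and 0.331 in PC, and 0.484 and 0.120 in RACM p0 and p2. RACM p4 had 0 counts, which allows up to 3 counts, or 0.153 CPM on that library's total before TMM scaling. The gene was not tested. Spock2 made up 95.6% to 97.9% of the testican level per kb in PC and 98.7% to 99.7% in RACM.

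Because Spock1 and Spock2 both had their lowest library at p4 in each cell type, while Sparc had its highest library there in each and Fstl1 its highest in RACM, their RefSeq promoters (GRCm38.p6, from 250 bases before to 50 bases after the start) are shown together. They are printed 5′ to 3′ on the gene's strand, and capitals mark matches to any of 10 motifs searched on both strands. Spock1 is chr13:57908283-57908582 on the minus strand, Spock2 is chr10:60106007-60106306 on the plus strand, Fstl1 is chr16:37776805-37777104 on the plus strand, and Sparc is chr11:55420031-55420330 on the minus strand.
Spock1 promoter: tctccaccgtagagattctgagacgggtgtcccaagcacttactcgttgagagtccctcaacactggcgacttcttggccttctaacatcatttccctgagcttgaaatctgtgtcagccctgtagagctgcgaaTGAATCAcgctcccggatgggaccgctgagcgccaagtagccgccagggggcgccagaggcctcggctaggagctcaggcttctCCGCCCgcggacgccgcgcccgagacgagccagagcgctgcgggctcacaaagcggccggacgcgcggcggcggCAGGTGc
Spock2 promoter: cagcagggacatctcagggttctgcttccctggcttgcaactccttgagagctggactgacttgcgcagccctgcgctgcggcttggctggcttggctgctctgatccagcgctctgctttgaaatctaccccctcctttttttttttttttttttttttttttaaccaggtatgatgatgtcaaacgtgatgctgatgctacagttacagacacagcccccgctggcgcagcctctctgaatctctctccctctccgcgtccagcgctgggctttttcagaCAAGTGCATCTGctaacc
Fstl1 promoter: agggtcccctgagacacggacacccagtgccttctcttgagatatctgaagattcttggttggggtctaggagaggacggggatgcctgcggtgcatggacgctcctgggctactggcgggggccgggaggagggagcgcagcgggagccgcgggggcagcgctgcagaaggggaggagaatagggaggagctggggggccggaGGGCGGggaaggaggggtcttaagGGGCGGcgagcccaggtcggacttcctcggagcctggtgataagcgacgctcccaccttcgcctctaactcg
Sparc promoter: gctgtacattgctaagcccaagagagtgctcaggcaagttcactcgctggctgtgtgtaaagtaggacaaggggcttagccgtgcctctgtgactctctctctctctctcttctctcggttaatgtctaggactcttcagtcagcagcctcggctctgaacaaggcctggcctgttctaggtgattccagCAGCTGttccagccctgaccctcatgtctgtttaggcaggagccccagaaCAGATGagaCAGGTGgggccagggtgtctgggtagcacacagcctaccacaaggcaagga

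The motifs were a TATA box (TATAAA), a GC box (GGGCGG), the CCAAT box, an activator protein 1 or AP-1 site (TGANTCA), a zinc finger site of the GATA family (AGATAA) and a homeodomain site (TAATTA). A T-box site (AGGTGTGA), a basic helix-loop-helix E-box (CANNTG), a TEAD site (GGAATG) and a MEF2 site completed the set, and no matches overlapped in these promoters. Positions count from the start site, and a negative position lies before it. The Spock1 promoter held an AP-1 match at -115, a GC box on the opposite strand at -31 and an E-box at 44. The Spock2 promoter held E-boxes at 33 and 39, side by side, and the Fstl1 promoter held GC boxes at -46 and -22. The Sparc promoter held E-boxes at -60, -10 and -1. An E-box was present in 72.3% of 32851 promoters of this length. GC boxes were in 35.7% and the activator protein (AP-1) motif in 7.81%. No other motif of the 10 had a match in these promoters. Across all promoters their shares were 13.6% for TATAAA, 37.4% for CCAAT, 11.2% for GATA, 5.29% for homeodomain, 1.28% for T-box, 14.7% for TEAD and 3.69% for MEF2. The Spock1 and Fstl1 promoters were rich in G and C, at 64.0% and 66.7%, with 29 and 21 CpG pairs, against 52.3% and 10 pairs in Spock2 and 55.3% and 4 pairs in Sparc. The median promoter had 52.7% and 7 pairs. Of the 8 members, 5 matched a promoter entry. Smoc1, Smoc2 and Sparcl1 are named only.

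Sparc was the most abundant member of the family per kb in both cell types and had overlapping levels in both. Its CPM was 1227, 951 and 1602 in PC, and 824, 1027 and 2132 in RACM. The groups overlapped throughout, and the p4 library was the highest of each. On the log2 scale PC over RACM was -0.08 ± 0.35 (adjusted p = 0.934, edgeR quasi-likelihood). Its sign depended on the setting: it was 0.45 without RACM p4, 0.21 without both p4 libraries, 0.10 without PC p2, and 0.02 with the p number as a block or with limma-voom. Adjusted p ran from 0.435 to 0.987 over all alternatives.

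Sparcl1, whose protein is known as an anti-adhesive matrix glycoprotein, had higher CPM in every PC library. It was at 121, 114 and 167 CPM in PC, and at 45.7, 66.2 and 106 CPM in RACM. The groups came close without overlapping, at PC p2 and RACM p4. With 3 libraries each, the log2 fold change of 0.88 ± 0.29 did not pass (adjusted p = 0.115). With the p number as a block it was 0.94 and passed (adjusted p = 0.0136). It also passed without RACM p4 (log2 1.26, adjusted p = 0.0235), without both p4 libraries (1.04, 0.0468), with DESeq2 (0.0409) and with no filter (0.00863). The highest adjusted p over all alternatives was 0.318. Sparcl1 made up 11.3% to 13.3% of the summed Sparc and Sparcl1 level per kb in PC and at most 7.67% in RACM. The groups did not overlap in that share.

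Fstl1 was level in PC and uneven in RACM. Its CPM was 320.2, 268 and 317 in PC, and 309.9, 494 and 1095 in RACM. RACM p0 lay within the PC libraries, and RACM p4 stood far above every other library. The log2 fold change of -1.07 ± 0.39 did not pass (adjusted p = 0.148, edgeR quasi-likelihood). Without RACM p4 it was -0.41 (adjusted p = 0.437) and without both p4 libraries -0.48. Without RACM p0 it was -1.39 and passed (adjusted p = 0.0333), as it did with DESeq2 (0.0284) and with no filter (0.00349). Fibroblast markers summed to 1089, 2539 and 7186 CPM in the same 3 RACM libraries and to 659, 818 and 1771 CPM in PC. Macrophage and epicardial sums were also highest in RACM p4 among the libraries, at 702 and 90.4 CPM. The part of these cell types in the Fstl1 values was not tested.

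**Figure D1:**
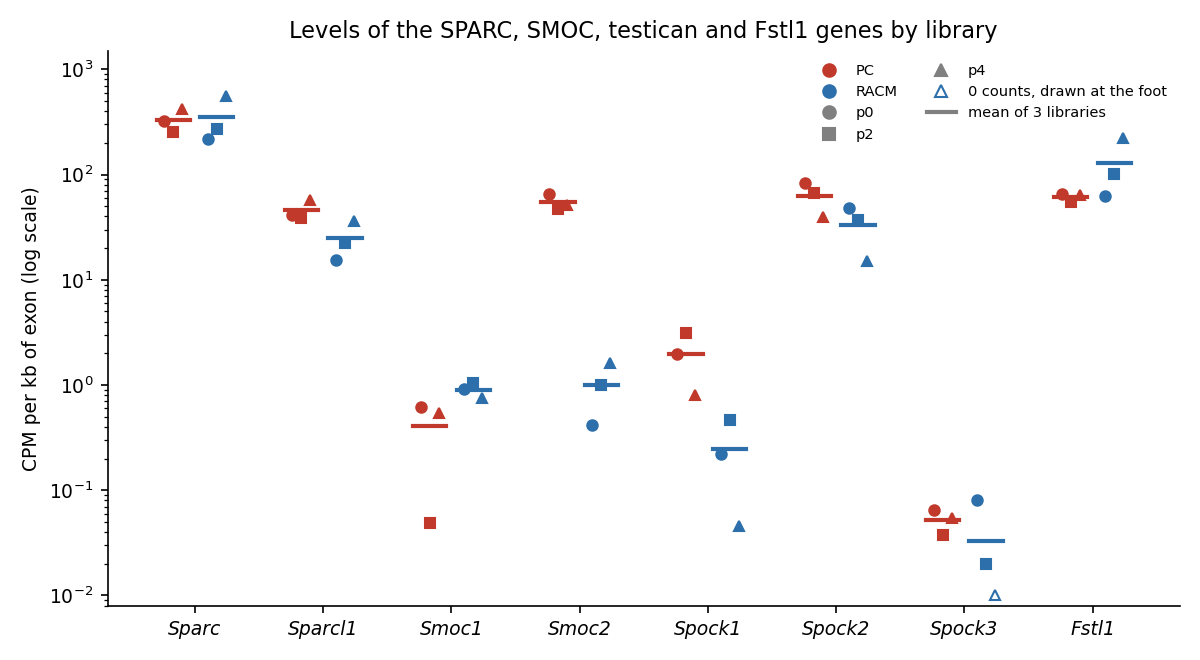
Levels of the 8 family members in CPM per kb of exon on a log axis, with 1 symbol per library (circle p0, square p2, triangle p4) and a line at the mean of 3 libraries. Smoc2 has means of 54.7 in PC and 1.01 in RACM, Sparc leads in both at 333 and 351, and the open triangle is the RACM p4 library with 0 counts of Spock3.

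In all, 2 of the 7 members tested, Smoc2 and Spock1, were called in PC against RACM, both higher in PC, where 7.27% of the 18015 genes tested were called in either direction, 3.69% higher and 3.57% lower. The other 5 did not pass. With the p number as a block 4 members were called, adding Spock2 and Sparcl1, where 11.6% of genes were called. DESeq2 called 4, Smoc2, Spock1, Sparcl1 and Fstl1, where it called 12.8% of genes. With no filter edgeR called 5 of the 8, all but Smoc1, Sparc and Spock3, where 7.07% of 33066 genes were called. The PC and RACM libraries did not overlap for 4 of the 7 members: Smoc2, Spock1 and Sparcl1 were higher in PC and Smoc1 lower. Among all genes tested 26.9% did not overlap. With 7 members, each of these shares rests on few genes.

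**Figure D2:**
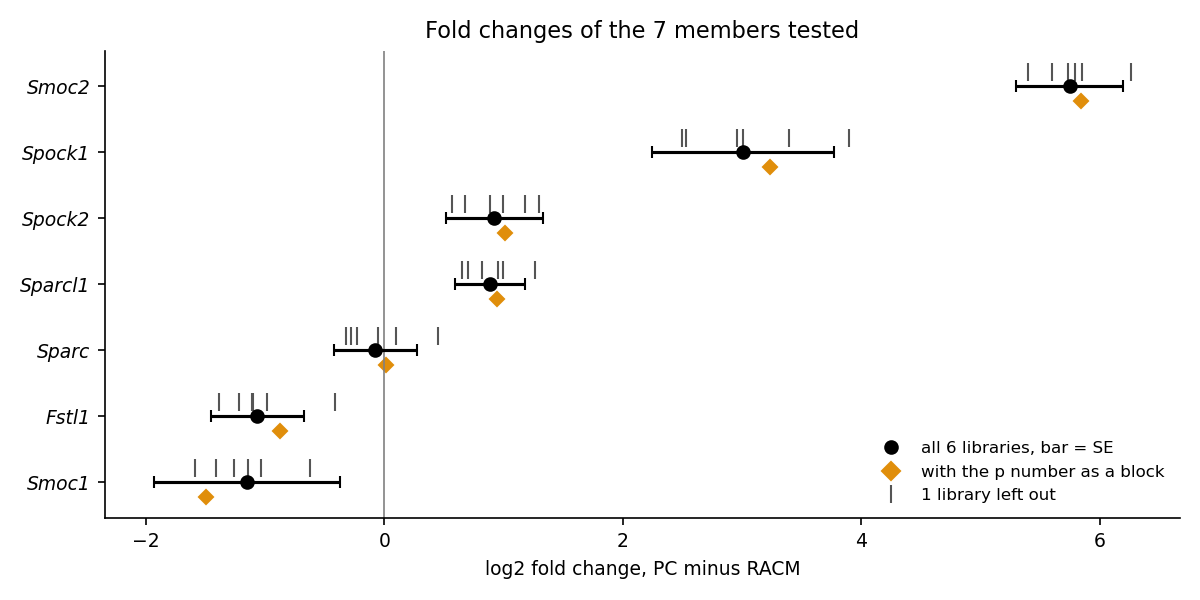
Log2 fold change of PC over RACM for the 7 members tested, with SE bars from edgeR's quasi-likelihood fit, orange diamonds for the fit with the p number as a block and grey ticks for fits with 1 library left out. Smoc2 at 5.74 and Spock1 at 3.01 are the 2 that passed an adjusted p of 0.05, and Sparc sits at -0.08.

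Ordered by level per kb, the family had a like ranking at its top in both cell types. In PC, Sparc led with 333 ± 86.3 CPM per kb (SD, n = 3), followed by Spock2 at 63.1 ± 22.1, Fstl1 at 61.4 ± 5.92, Smoc2 at 54.7 ± 9.60 and Sparcl1 at 45.6 ± 9.76. Libraries of neighbours in that order overlapped from Spock2 to Sparcl1. Each neighbouring pair there also changed order from library to library, so the ranks of neighbours could not be separated. Fstl1 was above Sparcl1 within each PC library, at 65.2, 54.6 and 64.6 against 41.3, 38.7 and 56.7 CPM per kb. Far below them came Spock1 at 1.96 ± 1.14, Smoc1 at 0.404 ± 0.310 and Spock3 at 0.0522 CPM per kb. Spock3 overlapped Smoc1 but was below it within each PC library. In RACM, Sparc at 351 ± 186 and Fstl1 at 129 ± 83.5 CPM per kb overlapped, then came Spock2 at 33.3 ± 16.9 and Sparcl1 at 24.7 ± 10.4, which also overlapped. The overlap of Sparc and Fstl1 rested on RACM p4: Fstl1 was at 63.1, 100.5 and 223 CPM per kb, and Sparc at 218, 271 and 563. Within each RACM library Sparc was the higher. Without RACM p4 the mean of Fstl1 was 81.8 CPM per kb. Smoc2 was at 1.01 ± 0.594 CPM per kb there, in the range of Smoc1 at 0.903 ± 0.144. The place of Smoc2 was the clearest difference in order between the cell types.

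Stacked into 1 sum, the family came to 581, 462 and 636 CPM per kb in the PC libraries and to 346, 433 and 839 CPM per kb in the RACM libraries. The groups overlapped, and RACM p4 was the highest library. Smoc2 made up 9.85% ± 1.63 of that sum in PC and 0.181% ± 0.0556 in RACM (SD, n = 3). Fstl1 made up 11.1% ± 0.846 in PC and 22.7% ± 4.19 in RACM. Sparcl1 made up 8.13% ± 0.928 against 4.66% ± 0.479, and Sparc 58.8% ± 6.65 against 64.2% ± 2.53. These shares describe 3 libraries a cell type and were not tested.

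**Figure D3:**
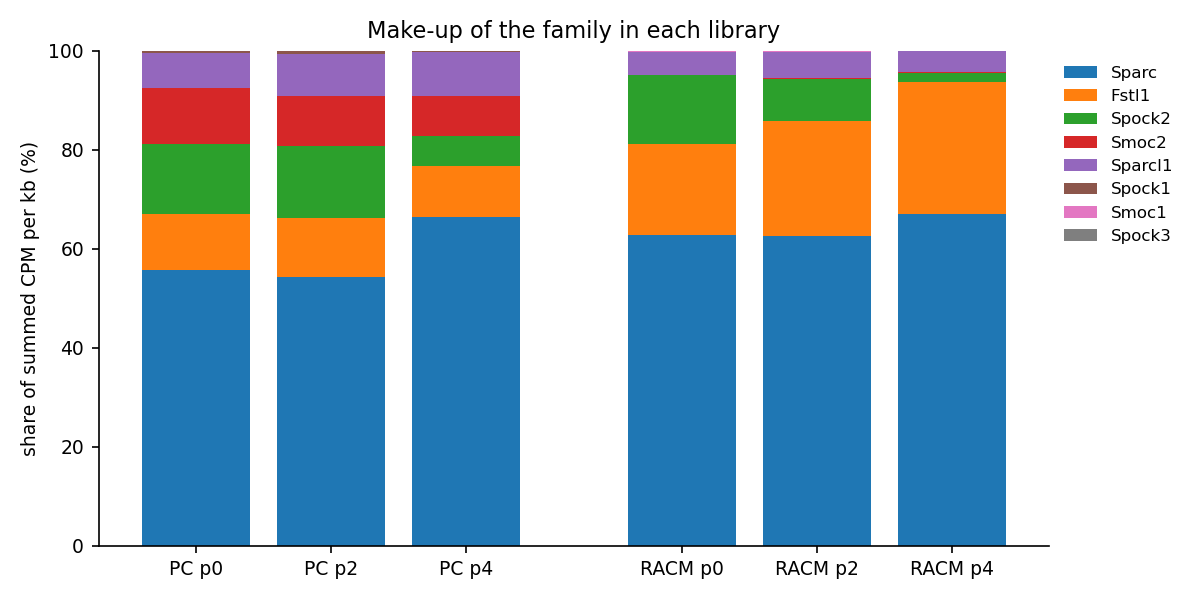
Stacked bars of the summed family level per kb in each of the 6 libraries, as the percent given by each member. Smoc2 fills 9.85% on average in PC and 0.181% in RACM, and Fstl1 fills 11.1% and 22.7%.

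The p number was a further label shared by both cell types, and the members differed in how their libraries lay along it. Spock2 and Spock1 had their lowest library at p4 in both cell types. For Spock2 the p4 over p0 ratio of CPM was 0.473 in PC and 0.309 in RACM, and for Spock1 it was 0.405 and 0.206. Sparc and Sparcl1 had their highest library at p4 in both, with ratios of 1.31 in PC and 2.59 in RACM for Sparc, and 1.37 and 2.31 for Sparcl1. In an F test of the number with cell type in the model, no member passed (edgeR quasi-likelihood). The smallest adjusted p values were 0.102 for Spock2, 0.160 for Spock1 and 0.239 for Sparc. That test called 1 of all genes, 0.00555%, with 2141 genes, 11.9%, at an unadjusted p under 0.05. A DESeq2 likelihood ratio test called 4.96% of genes and 4 members, namely Spock2, Spock1, Sparc and Sparcl1. With genes kept only at 5 CPM or more throughout 1 cell type, edgeR called 0.498% of genes and Spock2 alone among the members (adjusted p = 0.0407).

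Smoc2 and Fstl1 lay differently in the 2 cell types. The p4 over p0 ratio of Smoc2 was 0.784 in PC and 3.85 in RACM, and that of Fstl1 was 0.991 in PC and 3.53 in RACM. The PC over RACM ratio of Smoc2 was 157 at p0, 47.3 at p2 and 32.0 at p4, and that of Fstl1 was 1.03, 0.544 and 0.290. A test of the difference between cell types in slope on the number gave unadjusted p values of 0.00135 for Smoc2 and 0.00190 for Fstl1. It called no gene at an adjusted p of 0.05 (edgeR quasi-likelihood, 0%), with 760 genes, 4.22%, at an unadjusted p under 0.05. On simulated data with the change placed in RACM p4 alone, that test recovered 0% of genes with 8-fold changes and 6% with 16-fold changes. It had little power for a change of that form. A rise through p2, as Smoc2 and Fstl1 had in RACM, was not simulated. Fibroblast markers summed to 6.60 times as much in RACM p4 as in RACM p0, and to 2.69 times as much in PC p4 as in PC p0. Smooth muscle and pericyte markers gave 3.20 and 1.06 times. Epicardial markers gave 7.44 and 3.10 times, although 4 of the 6 were at 0 in a library. Macrophage markers gave 4.73 and 1.69 times, endothelial and endocardial markers 1.41 and 1.30, and cardiomyocyte markers 0.682 and 0.984. Pacemaker cell markers in RACM summed to 318, 341 and 225 CPM at p0, p2 and p4, so the RACM p4 library, highest in Smoc2, was the lowest in these. The part of other cell types in the Smoc2 and Fstl1 values was not tested.

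**Figure D4:**
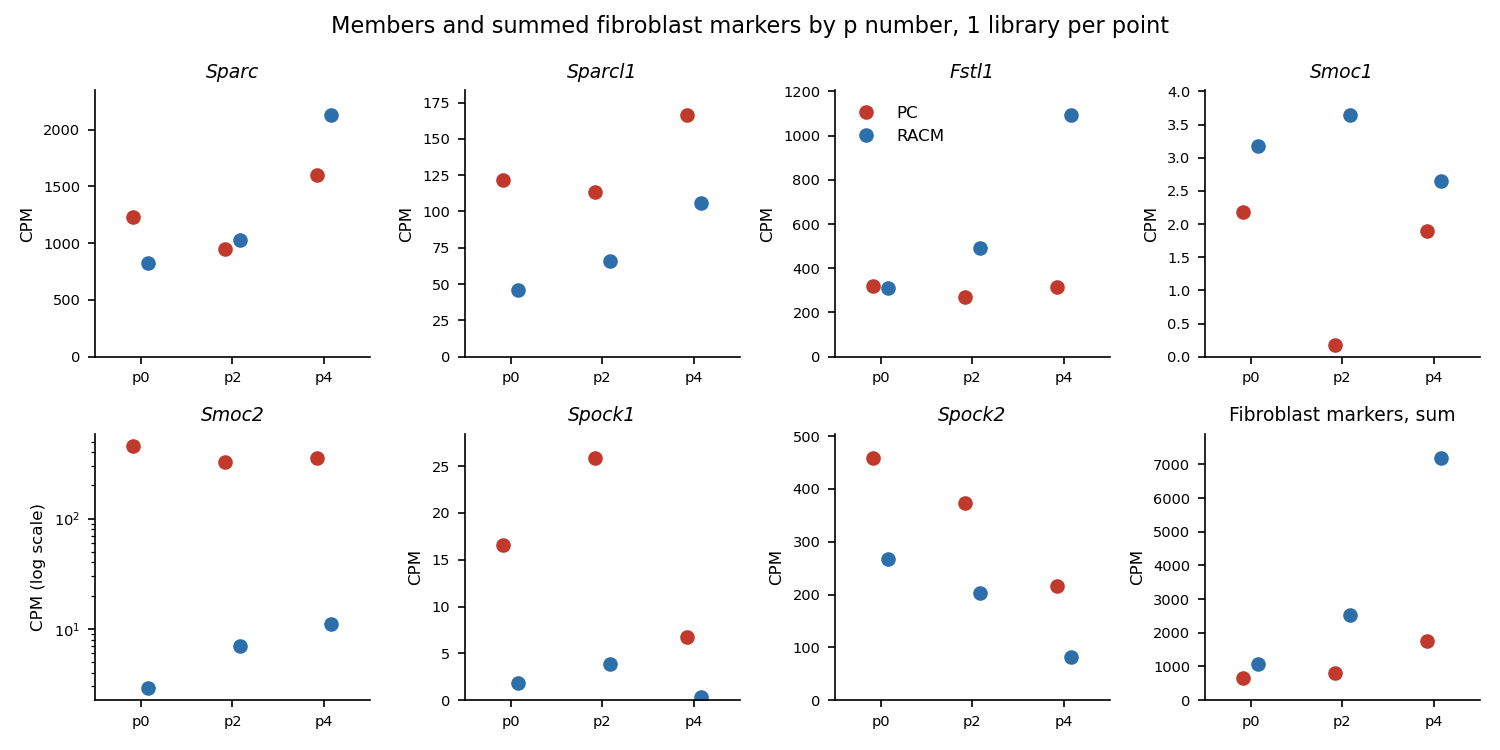
CPM of the 7 tested members and summed CPM of 9 fibroblast markers by p number, 1 point per library, on linear axes from 0 except for Smoc2, whose axis is logarithmic. Spock1 and Spock2 are lowest at p4 in both cell types, and Fstl1 and the fibroblast markers reach 1095 and 7186 CPM in RACM p4.

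Within the family, Spock1 and Spock2 went together across the 6 libraries, with a Pearson correlation of log2(CPM + 1) of 0.858. Smoc2 and Sparcl1 gave 0.852, Sparc and Fstl1 gave 0.707, and Spock2 and Fstl1 gave -0.906. Among 8737 genes with a mean of at least 10 CPM, the pattern most like Smoc2 was that of Bmp2 (0.998), which encodes a BMP ligand. Spock2 was most like Gata6 (0.996), a cardiac transcription factor gene, and Ednra (0.993), which encodes an endothelin receptor. Fstl1 was most like Acvr1 (0.997), a BMP type I receptor gene, and Gpc6 (0.992), a glypican gene. Sparc was most like Dnajc10 (0.998), Sparcl1 most like Ripor2 (0.986) and Smoc1 most like Tcea1-ps1 (0.992). The points of these correlations share cell type, number and library, so many genes reach high values.

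Genes that work with the family were read from 7 lists, described by counts beside the 7.27% of all genes called and the median log2 fold change of 0.01 over all genes tested. Among 8 tested genes with a follistatin domain outside the family, none was called (edgeR quasi-likelihood), also with the p number as a block, and the median log2 fold change was -0.30. The smallest p values there belonged to the protease-inhibitor-like genes Wfikkn1 and Wfikkn2, with means of 0.160 and 1.07 CPM in PC against 1.29 and 3.81 in RACM. For neither did the libraries overlap, and their adjusted p values were 0.124 and 0.148.

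Of 18 tested genes for collagens, growth factors and receptors that SPARC binds or that bind it, 0 were higher and 4 were lower in PC, 22.2% of the list, with a median log2 fold change of -0.85. Thbs1, encoding the matricellular protein thrombospondin 1, was at 27.0, 26.8 and 49.6 CPM in PC, and at 111, 189 and 328 CPM in RACM. Its log2 fold change was -2.60 ± 0.41 (adjusted p = 0.00713, edgeR quasi-likelihood). Stab1, a scavenger receptor of macrophages and sinusoidal endothelium that takes up SPARC, was at 1.87 to 7.09 CPM in PC and 16.2 to 70.5 CPM in RACM, with log2 -3.32 ± 0.62 (adjusted p = 0.0147). Neither gene's groups overlapped. Col4a1 and Itga5, chosen after their values were seen, were the other 2, at log2 -1.20 and -0.73. The count was 10 with the block, 1 without PC p0, 2 without PC p2 and 7 without RACM p0. Macrophage markers, at 10.6 to 41.4 CPM in PC and 148 to 702 CPM in RACM, went the same way. Col1a1, Col1a2 and Col3a1 of this list, none of them called, are also fibroblast markers, whose sums were 659 to 1771 CPM in PC and 1089 to 7186 CPM in RACM. The part of either cell type was not tested.

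The BMP list, the setting in which SMOC and FSTL1 proteins act, split in both directions. Of 24 tested genes 5 were higher and 3 were lower in PC, 33.3% in all, with a median log2 fold change of 0.17. The ligand gene Bmp2 was at 197, 145 and 156 CPM in PC, and at 11.6, 14.7 and 21.7 CPM in RACM. The ligand gene Bmp10, a marker of working atrium that is also in the working atrial list, was the reverse, at 46.1, 11.6 and 15.1 CPM in PC and 1580, 1238 and 2081 CPM in RACM. Both differed without overlap, at log2 3.37 ± 0.26 (adjusted p = 1.81e-04) and -6.07 ± 0.57 (adjusted p = 5.14e-04, edgeR quasi-likelihood). Named after their values were seen, the other higher genes were Bmp4 at log2 3.69, the signal transducer Smad9 at 2.26, Bmp7 at 1.98 and the target Id1 at 1.28. The other lower genes were Cd14 at -3.89 and Tlr4 at -2.17, innate immune receptors reported to bind FSTL1. Macrophages express both, and the summed macrophage markers given above were also lower in PC. Without PC p0 5 of the list were called.

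Among 12 tested heparan sulfate core proteins, the class to which testicans are related, 1 was higher and 2 were lower in PC, 25.0%, with a median of -0.67. The glypican gene Gpc3 was at 94.0, 97.7 and 98.1 CPM in PC and 38.3, 26.7 and 30.7 in RACM, a log2 fold change of 1.60 ± 0.18 (adjusted p = 0.00126, edgeR quasi-likelihood). Tgfbr3, encoding betaglycan, was at 28.7, 16.5 and 18.0 CPM in PC and 80.1, 64.8 and 65.6 in RACM, with log2 -1.74 ± 0.24 (adjusted p = 0.00390). The libraries of neither gene overlapped. Sdc1, chosen after its values were seen, was the other lower gene (log2 -2.84). The count was 5 with the block, 5 without RACM p0, and 2 on leaving out either RACM p2 or RACM p4, PC p0 or PC p2.

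Of 22 tested enzymes that build glycosaminoglycan chains, 1 was higher and 1 was lower in PC, 9.09%, near the background of 7.27%, with a median log2 fold change of 0.18. Hs6st2, a heparan sulfate sulfotransferase gene, was at 17.5 to 25.4 CPM in PC and 4.28 to 5.08 CPM in RACM, with log2 2.23 ± 0.27 (adjusted p = 0.00172, edgeR quasi-likelihood). Ext2, part of the heparan sulfate polymerase, was at 28.3 to 52.5 CPM in PC and 70.0 to 104 CPM in RACM, with log2 -1.16 ± 0.25 (adjusted p = 0.0271). The groups of neither gene overlapped. The count was 3 without PC p4 and 1 with any other library left out, that is PC p0, PC p2 or any of RACM p0, p2 and p4.

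Testicans are known as protease regulators. Of 14 tested proteases and inhibitors linked to them, 0 were higher and 3 were lower in PC, 21.4%, with a median log2 fold change of -0.34. Mmp14, a membrane metalloprotease gene, was at 24.1, 22.5 and 21.6 CPM in PC and 55.2, 92.5 and 127 in RACM, with log2 -2.01 ± 0.28 (adjusted p = 0.00415, edgeR quasi-likelihood). The cathepsin gene Ctss was at 0.509 to 9.97 CPM in PC and 29.1 to 76.0 CPM in RACM, with log2 -3.39 ± 0.77 (adjusted p = 0.0318). Mmp2, chosen after its values were seen, was the third (log2 -2.26). All 3 were without overlap. The count was 5 with the block, 2 without PC p2 or PC p4, and 1 on leaving out RACM p2, RACM p4 or PC p0. Fibroblast and macrophage markers were also at higher summed levels in RACM than in PC of the same number, and their part was not tested.

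Other matricellular genes, the functional class of SPARC, were mostly lower in PC where called. Of 19 tested, 1 was higher and 8 were lower in PC, 47.4%, with a median log2 fold change of -1.37. Thbs1, given above, is among the lower genes. Fbln1, a basement membrane fibulin gene, was at 71.7, 86.8 and 78.2 CPM in PC and 187, 215 and 207 CPM in RACM, with log2 -1.37 ± 0.15 (adjusted p = 0.00129, edgeR quasi-likelihood). Tnr, encoding tenascin R, was the 1 higher gene, at 2.12, 2.60 and 8.83 CPM in PC and 0.414, 0.0598 and 0.337 in RACM, with log2 4.04 ± 0.87 (adjusted p = 0.0257). Neither gene's groups overlapped. Postn, a fibroblast matricellular gene chosen after its values were seen, was at 237, 195 and 518 CPM in PC and 620, 1376 and 4214 CPM in RACM (log2 -2.71), the same order of libraries as the summed fibroblast markers in RACM. The count was 15 with the block, 3 without PC p0, 4 without PC p2, RACM p2 or RACM p4, and 5 without PC p4 or without both p4 libraries.

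**Figure D5:**
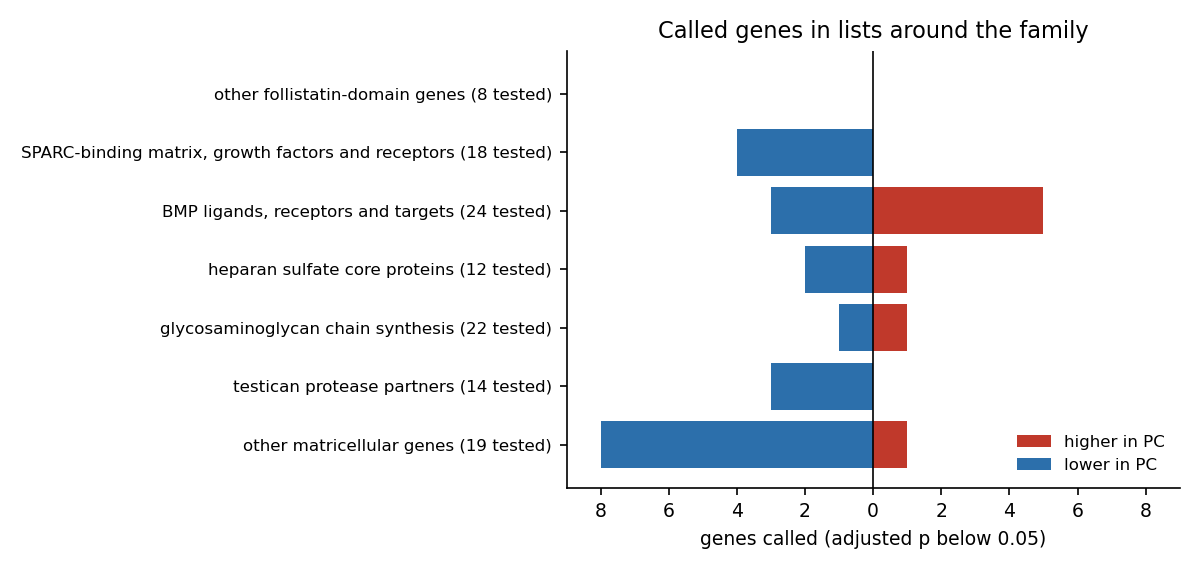
Number of tested genes called higher (right, red) and lower (left, blue) in PC in each of the 7 lists. The other matricellular genes hold 8 lower calls and 1 higher, and the BMP list holds 5 higher and 3 lower.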

How the data were processed

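RNA was measured in 3 PC and 3 RACM libraries. Per the labels' protocols, cDNA was made by the Ovation V2 method and sequenced as paired 100-base reads. The authors deposited raw counts per gene, made with featureCounts 2.0.1 over exons on mm10 with no option for strand set, per the file headers. Other tools, given with no version, were Trimmomatic, HISAT2 and edgeR, per the submitters' processing notes. Without strand, a gene and its antisense partner cannot be told apart.

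Counts were tested with edgeR 4.0.16 (quasi-likelihood, TMM scaling, a minimum count of 10 and total of 15) in R 4.3.3, with cell type in the model. Calls are at a Benjamini-Hochberg adjusted p of 0.05 over 18015 genes. SE is the absolute log2 fold change divided by the square root of F. CPM used TMM-scaled totals, and levels per kb used exon length. CT010467.1, a ribosomal RNA-like sequence, took 9.60% to 13.9% of counts. With 3 libraries against 3, an exact permutation test cannot go below 0.1, so none is given. Replicates of a cell type are pools that also carry different p numbers. Without the block, p-values measure the spread between these libraries, in which pool and p number cannot be told apart. Floors cover counting error only.

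The members and lists were chosen with earlier results of these data known. Genes named per list are the 2 with the smallest p plus, where there was one, the top called gene that went the other way. Genes of like pattern were taken from the 2 of highest correlation, and some are not reported here.

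Pairing by number was checked through deviations from cell type means. These correlated between same-numbered libraries by 0.156 (p0), 0.234 (p2) and 0.237 (p4), each above 0.1. Libraries of unlike number gave -0.185 to -0.00147. Deviations from a mean cancel out within a cell type, so positive same-number values make the unlike-number values negative on balance. The unlike-number values are therefore not separate evidence. Any condition shared by a number could give the positive values too, so they do not show that same-numbered libraries came from one pool. No label gives a pairing, and a fit that takes the number as replicate block is given where it changes a call. Replicate libraries differed beyond sampling noise, with a chi-square of 29.5 to 74.6 times its degrees of freedom.

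On simulated counts for 18015 genes, edgeR, comparing PC with RACM, recovered 14%, 54%, 82% and 88% of genes changed 2, 4, 8 and 16-fold and called 13 unchanged genes. Other settings tried were upper-quartile and RLE scaling, no filter, a 5 CPM filter, the block, DESeq2 1.42.0, limma-voom (limma 3.58.1), CT010467.1 left out, each library left out, and both p4 libraries left out. The slope test was added after seeing the data. ATAC-seq libraries of the series were not analysed here.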

Additional observations from a re-analysis of the deposited data

Results flagged for a closer look

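Smoc2 and Fstl1 were picked out because their p2 and p4 libraries were both below p0 in PC and both above it in RACM. For Smoc2 the p4 over p0 ratio was 0.784 in PC and 3.85 in RACM. For Fstl1 the p4 over p0 ratio was 3.53 in RACM but 0.991 in PC, which is level. A test of the difference in slope on the number between cell types, added after seeing the data, gave unadjusted p values of 0.00135 and 0.00190 but called neither gene after adjustment over all genes (edgeR quasi-likelihood).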

How the results depend on the processing

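Smoc2 passed and kept its direction under all 15 alternatives, and Smoc1 passed under none of its 14. Against 2 members called in PC against RACM, the count was 1 with upper-quartile scaling or limma-voom, 4 with the replicate block or DESeq2, and 5 with no filter. Leaving out 1 library gave 1 to 2. Against 1309 genes called in all, the count was 2339 with no filter, 2082 with the replicate block, 2304 with DESeq2 (12.8% of 17989 genes) and 734 without both p4 libraries, and leaving out 1 library gave 511 to 1338, with 570 when PC p0, 763 when PC p2, 511 when RACM p2 and 727 when RACM p4 was left out. The log2 fold change of Sparc, -0.08, turned to 0.016 with the replicate block and 0.016 with limma-voom, and to 0.21 without both p4 libraries. Leaving out 1 library moved it from -0.32 (RACM p0) to 0.45 (RACM p4), with 0.10 when PC p2 was left out. The cause was not tested. The block changed no other member's call than those of Spock2 and Sparcl1.

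For lists, no filter gave 9 SPARC-binding genes, 6 heparan sulfate cores and 5 testican protease partners. The replicate block gave 10, 5 and 5 of these and 15 other matricellular genes. DESeq2 gave 5 heparan sulfate cores and 4 glycosaminoglycan enzymes, and 5 other matricellular genes were called without both p4 libraries. Leaving out 1 library gave 1 to 7 SPARC-binding genes, 5 to 7 BMP genes, 2 to 5 heparan sulfate cores, 1 to 3 glycosaminoglycan enzymes, 1 to 3 protease partners and 3 to 9 other matricellular genes. The F test of the p number called 1 gene and 0 members, 54 and 1 with a 5 CPM filter, and 686 and 4 with DESeq2. It was not run with libraries left out. With totals that leave out CT010467.1, the RACM level of Smoc1 was 1.08 in place of 0.903 CPM per kb.

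Counts were low for Spock3, with 27 in all, and for Smoc1, at 3 in PC p2 beside 39 in PC p0 and 40 in PC p4. For Smoc1 in PC, and for the members other than Smoc1 and Spock3, the spread between libraries exceeded counting noise.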
